A study of Homo sapiens and Mus musculus with 22 samples.

Results

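The replication-dependent histone genes of the HIST1, HIST2, HIST3 and HIST4 clusters were followed through every RNA sample of a study on inhibition of H3K9 methylation, in U2OS human osteosarcoma cells and L929 mouse fibroblasts. A gene was counted as a member when its symbol began with HIST1H, HIST2H, HIST3H or HIST4H and its level reached 1 FPKM (fragments per kilobase of transcript scaled to the mapped fragments of the sample) in at least 1 value of a table set. This gave 33 members of 70 such symbols in the SETDB1 set, 33 of 66 in the ATG5 set and 39 of 65 in the cGAS set, or 105 entries among 72158 genes summed over the 3 sets. The remaining 37, 33 and 26 entries stayed under that level, and 23, 21 and 10 of them were listed at 0 throughout. The last member inside the threshold and the first gene outside it peaked at 1.09 FPKM (HIST1H2AJ) and 0.751 FPKM (HIST1H3E) in the SETDB1 set, at 1.02 FPKM (HIST1H3H) and 0.688 FPKM (HIST1H2BM) in the ATG5 set, and at 1.00 FPKM (Hist1h2bn) and 0.992 FPKM (Hist1h2bh) in the cGAS set. A low member was therefore chosen for being high in some sample, and counts over low members are read with that in mind.

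The SETDB1 set held U2OS cells labelled SETDB1 KO1, SETDB1 KO2 and WT, mock-treated, with 2 libraries each. SETDB1 is an H3K9 methyltransferase. The ATG5 set held U2OS cells labelled ATG5 KD or vector, each with 10 µM BIX-01294 for 12 h or mock; every value there stands for 2 replicates merged by the submitters, so no spread is known. The cGAS set held L929 cells labelled cGAS KO or cGAS WT, each with BIX-01294 at that dose and time or mock, with 1 library each. BIX-01294 inhibits the H3K9 methyltransferases G9a and GLP, ATG5 is needed to build autophagosomes, and cGAS senses cytosolic DNA. The sources used here do not say how the knockdown and knockout lines were made, or from how many clones. Nothing in the labels says that the 2 libraries of a SETDB1 group came from separate cultures, so its p-values measure the spread between these libraries, which may be technical.

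Replication-dependent histone genes supply the H1 linker histones and the H2A, H2B, H3 and H4 core histones that package newly made DNA. Their main transcripts are made in S phase, lack introns and end in a stem-loop bound by SLBP instead of a poly(A) tail. Some of the genes, HIST1H1C, HIST1H2BD and HIST1H2AC among them, are known to give polyadenylated transcripts as well. All libraries here were selected on oligo-dT beads, so the values describe the polyadenylated part of histone RNA. Many copies within a class are near-identical, and the deposited counting could split or move reads between them, so single-gene values are less certain than those of other genes.

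Promoter sequences were read from RefSeq (GRCh38.p14) for 37 of the 41 human member symbols, since transcription of these clusters runs through short class-specific elements close to the start site. The motifs searched in the 250 bases before each start were CCAAT on either strand, the TATA box as TATAAA, and the octamer ATTTGCAT on either strand, the site of POU2F1 (OCT1) in H2B promoters. CCAAT was found in 12 of 12 H2B, 9 of 9 H2A, 5 of 5 H3 and 3 of 3 H1 member promoters, against 1 of 8 for H4 and 33.0% of 27305 promoters. The octamer was found in 9 of 12 H2B and 7 of 9 H2A promoters, in 1 of 5 H3 promoters and in 0 of 8 H4 promoters, against 1.66% of all. TATAAA was found anywhere in those 250 bases in 25 of 37 member promoters, against 7.17% of all. In HIST1H2BE and HIST4H4 the only match began at -189 and -250 from the start, so a match need not be a TATA box. These counts are not independent: windows of divergent H2A and H2B pairs overlap, and HIST1H2AD and HIST1H3D have 1 identical window, so the 1 H3 match of the octamer is also 1 of the 7 for H2A. The 180 bases before the start are shown for 7 members on which the results below turn: 5 H2A or H2B genes among those called in SETDB1 KO cells, with these motifs in capitals, and an H4 gene from each U2OS experiment, with the longest run the 2 windows share in capitals.
HIST2H2BE (chr1:149886683-149886862, minus strand): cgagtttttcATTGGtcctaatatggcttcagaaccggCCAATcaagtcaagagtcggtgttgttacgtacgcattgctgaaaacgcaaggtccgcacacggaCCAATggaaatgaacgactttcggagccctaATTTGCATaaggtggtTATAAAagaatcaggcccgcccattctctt
HIST1H2BK (chr6:27146859-27147038, minus strand): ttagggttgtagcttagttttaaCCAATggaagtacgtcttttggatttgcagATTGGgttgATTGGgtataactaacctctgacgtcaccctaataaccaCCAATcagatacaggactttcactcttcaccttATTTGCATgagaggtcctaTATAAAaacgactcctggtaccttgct
HIST1H2BD (chr6:26157941-26158120, plus strand): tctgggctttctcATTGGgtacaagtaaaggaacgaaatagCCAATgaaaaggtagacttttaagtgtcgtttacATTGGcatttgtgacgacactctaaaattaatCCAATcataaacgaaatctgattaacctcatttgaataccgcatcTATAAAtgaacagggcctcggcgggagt
HIST1H2BG (chr6:26216689-26216868, minus strand): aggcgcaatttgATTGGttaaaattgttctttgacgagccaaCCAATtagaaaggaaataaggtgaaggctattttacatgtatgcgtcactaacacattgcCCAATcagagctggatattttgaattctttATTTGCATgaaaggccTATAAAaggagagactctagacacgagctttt
HIST1H2AC (chr6:26123992-26124171, plus strand): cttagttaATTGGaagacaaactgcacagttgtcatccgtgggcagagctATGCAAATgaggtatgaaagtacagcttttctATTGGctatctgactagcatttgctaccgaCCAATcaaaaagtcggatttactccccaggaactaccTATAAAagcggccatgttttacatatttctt
HIST1H4E (chr6:26204430-26204609, plus strand): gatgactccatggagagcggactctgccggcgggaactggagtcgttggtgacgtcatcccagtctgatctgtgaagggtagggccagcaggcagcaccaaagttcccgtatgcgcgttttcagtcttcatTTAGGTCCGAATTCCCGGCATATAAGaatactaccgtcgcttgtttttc
HIST1H4H (chr6:26285535-26285714, minus strand): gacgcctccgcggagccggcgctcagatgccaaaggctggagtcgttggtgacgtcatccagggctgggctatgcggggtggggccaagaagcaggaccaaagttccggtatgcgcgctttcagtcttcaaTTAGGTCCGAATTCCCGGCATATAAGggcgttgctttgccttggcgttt
HIST2H2BE, HIST1H2BK and HIST1H2BG carried the octamer at -46, -46 and -48, a few bases before TATAAA at -30, -27 and -32, counted from the start to the first base of the motif. HIST1H2BD had 4 CCAAT matches and TATAAA but no octamer match. HIST1H4E and HIST1H4H had none of the 3 motifs in the window and shared a run of 26 bases starting at -49, which occurred in no other member promoter of the H4 class and in no other promoter of the table. A match is a description of the letters only.

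In U2OS cells the polyadenylated signal came from a few members, and most of it from H2B and H1. Averaged over the 6 libraries of the SETDB1 set, HIST1H2BK stood at 455 FPKM and HIST1H1C at 291 FPKM, together 72.0% of the members' summed FPKM. HIST1H2AC followed at 58.7 FPKM, HIST2H2BE at 41.9 FPKM, HIST1H2BC at 36.2 FPKM, HIST1H2BD at 35.0 FPKM and HIST1H2BJ at 30.6 FPKM. HIST1H4H, at 16.3 FPKM, was the highest H4 gene, and the summed FPKM of H3 members lay between 5.7 and 8.3 in every library. That sum leaves out the joined locus of HIST1H2AD and HIST1H3D, at a mean of 7.02 FPKM. FPKM corrects for length only approximately in transcripts as short as the sequenced fragments, so levels between these genes are coarse.

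**Figure D1:**
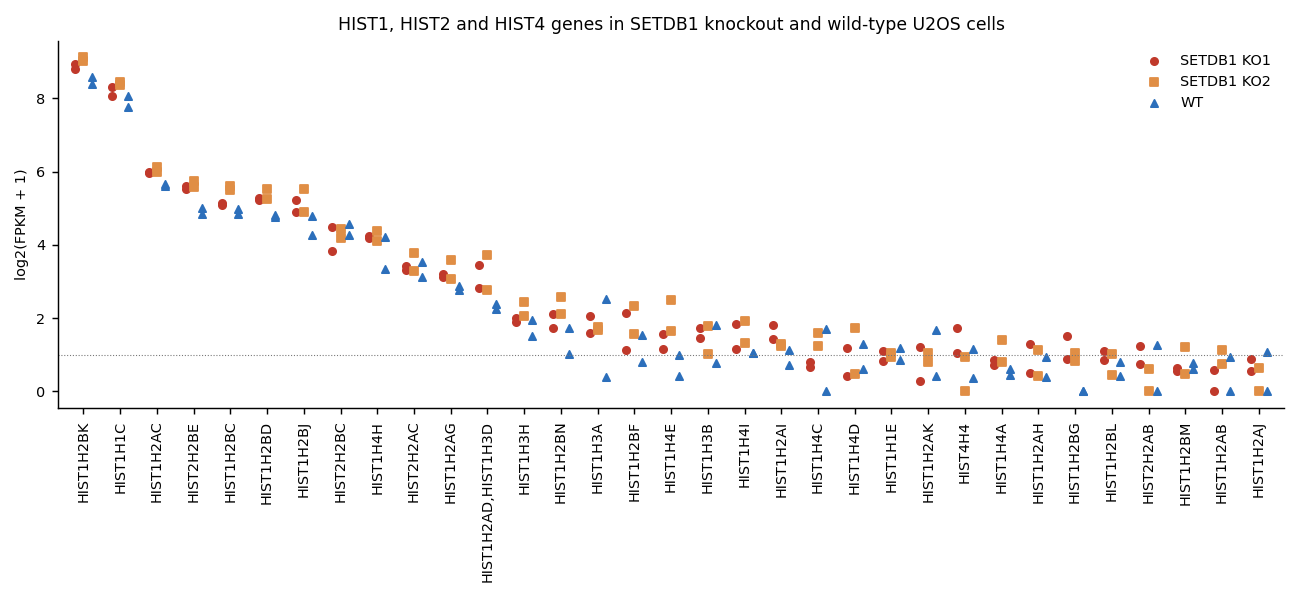
Levels of the 33 members in the 6 libraries of the SETDB1 set, as log2(FPKM + 1), ordered by mean level; each point is 1 library of SETDB1 KO1, SETDB1 KO2 or WT. The first 2 genes hold 72.0% of the summed FPKM, and the KO points lie above the WT points for HIST2H2BE, HIST1H2BD and HIST1H2BK.

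The SETDB1 transcript was 5.90 and 7.03 FPKM in KO1, 6.89 and 7.35 FPKM in KO2, and 9.98 and 9.32 FPKM in WT. Its level fell by 0.45 on the log2(FPKM + 1) scale in the mean of the KO lines (SE 0.11, limma adjusted p = 0.0432), while RNA was still read in both. The ATG5 transcript stood at 13.4 FPKM with BIX and 10.1 FPKM with mock in the values labelled ATG5 KD, against 12.3 and 11.3 FPKM in vector, so the knockdown did not show in its own RNA. Mb21d1, the mouse gene of cGAS, stood at 4.41 FPKM with BIX and 1.19 FPKM with mock in the libraries labelled cGAS KO, against 3.47 and 2.82 FPKM in cGAS WT. Which part of each gene was altered is not known, and the groups are called by their labels. Among marker lists, 7 to 8 of 10 mesenchymal genes reached 1 FPKM in U2OS and 7 of 10 in L929, blood markers summed to at most 1.47 FPKM, and 4 to 5 of 6 epithelial genes, mainly keratins, reached 1 FPKM in U2OS but at most 1 in L929.

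In the SETDB1 KO lines 7 of the 29 members tested were called higher than in WT in the mean of the lines, where 2.45% of 12610 genes were, and 0 lower, where 0.777% were. Of the 7, 5 were H2B genes, 1 an H2A gene and 1 an H4 gene. Summed over members, the level was 1069 and 1056 FPKM in KO1, 1250 and 1179 FPKM in KO2, and 781 and 882 FPKM in WT. The KO libraries lay above both WT libraries in each line. H2B members summed to 679 and 609 FPKM in KO1, 769.5 and 711 FPKM in KO2, and 471 and 512 FPKM in WT, and H1 members to 268 and 318 FPKM, 350 and 328 FPKM, and 218 and 268 FPKM in the same order.

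HIST2H2BE, an H2B gene of the HIST2 cluster whose octamer promoter is shown above, was 47.9 and 45.5 FPKM in KO1, 46.6 and 52.7 FPKM in KO2, and 31.0 and 27.8 FPKM in WT. All 4 KO libraries stood clear of WT. The mean of the KO lines was 0.69 higher on the log2(FPKM + 1) scale, on which every difference below is given (SE 0.095, adjusted p = 0.000919), and the gene passed in KO1 and in KO2 taken singly. HIST1H2BD was 36.7 and 38.2 FPKM in KO1, 44.7 and 37.2 FPKM in KO2, and 27.0 and 26.0 FPKM in WT. It too did not overlap between the groups and passed in both lines (mean of the KO lines 0.55 higher, SE 0.098, adjusted p = 0.00697). Without the second WT library, HIST1H2BD no longer passed in the mean of the KO lines (adjusted p = 0.0678) and HIST2H2BE no longer passed in KO1 (adjusted p = 0.0577). HIST1H2BG was 1.86 and 0.84 FPKM in KO1 and 1.07 and 0.76 FPKM in KO2, and was listed at 0 in both WT libraries. It passed in both lines, but it met the filter on low values only through KO libraries, so its call is no support for a difference; without it, 6 members were called in the mean of the lines, 2 in KO1 and 6 in KO2. No fold against a listed 0 is given. In single lines, leaving out either library of KO1 or of WT gave HIST1H2BD adjusted p-values of 0.125 to 0.232 in KO1. In KO2 it was 0.0813 without the first KO2 library and 0.0696 without the second WT library. Leaving out the second KO2 library or either WT library gave HIST1H2BG 0.11 to 0.125 in KO2.

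Other members passed in the mean of the KO lines and in 1 line at most. HIST1H2BK, the most abundant member, was 494 and 443 FPKM in KO1, 555 and 522 FPKM in KO2, and 335 and 384 FPKM in WT (0.48 higher, SE 0.11, adjusted p = 0.0392). HIST1H2BC was 34.1 and 32.9 FPKM in KO1, 47.9 and 44.3 FPKM in KO2, and 28.0 and 30.3 FPKM in WT (0.42 higher, SE 0.090, adjusted p = 0.0228). Both were furthest from WT in KO2, the line in which they passed singly. HIST1H2AC, an H2A gene that starts from the same divergent stretch as HIST1H2BC, was 62.7 and 61.3 FPKM in KO1, 69.2 and 62.0 FPKM in KO2, and 47.7 and 49.5 FPKM in WT (0.39 higher, SE 0.090, adjusted p = 0.0375). HIST1H4E was 1.24 and 1.99 FPKM in KO1, 4.65 and 2.15 FPKM in KO2, and 0.35 and 1.01 FPKM in WT (1.01 higher, SE 0.23, adjusted p = 0.0339). Its groups do not overlap, yet its highest value is a single KO2 library. Leaving out single libraries ended several of these calls: without the first WT library the adjusted p in the mean of the KO lines was 0.319 for HIST1H2BK, 0.215 for HIST1H2BC, 0.235 for HIST1H2AC and 0.241 for HIST1H4E, and without the second it was 0.0834, 0.0754 and 0.174 for the first 3. Without the first KO2 library it was 0.0795 for HIST1H2BK, 0.0722 for HIST1H2AC and 0.0764 for HIST1H4E, and without the first KO1 library 0.12 for HIST1H2BK, 0.0574 for HIST1H2BC and 0.0912 for HIST1H2AC. HIST1H2BK was at 0.0668 without the second KO2 library, and HIST1H2AC at 0.0647 without the second KO1 library. The differences kept their sign in every one of these fits, the smallest being 0.35. HIST1H2BN passed in KO2 alone, at 4.99 and 3.36 FPKM, against 2.30 and 1.04 FPKM in WT.

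In KO1, 3 were called higher, against 1.9% of all genes, and 0 lower, against 0.523%. In KO2, 7 were called higher, against 2.01%, and 0 lower, against 0.436%. At an unadjusted p below 0.05 in the same limma fit, 16 of the 29 members were higher in the mean of the KO lines and 0 lower, where 5.74% and 6.08% of all genes were. The lines share their WT libraries. Between KO1 and KO2 themselves 0 of 12610 genes were called (0%), with 94 higher and 111 lower in KO1 at an unadjusted p below 0.05. The median difference over the 29 members was 0.39, against -0.01 over all genes tested. All 4 KO libraries exceeded both WT libraries for 12 of the 29, where 10.2% of all genes did so, and lay below them for 0, where 11.2% did. HIST1H2BG, which met the filter on low values only through KO libraries, is among these 12 and among the 16 above, and is no support in either count. HIST1H2BL and HIST1H2AH also met it only through KO libraries. Neither is in these counts, but both enter the median, as does HIST1H2BG. Without the second WT library, which leaves 1 WT library, fewer members were called higher in the mean of the KO lines. Without the low-value filter 2 were, where 1.15% of all genes were.

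**Figure D2:**
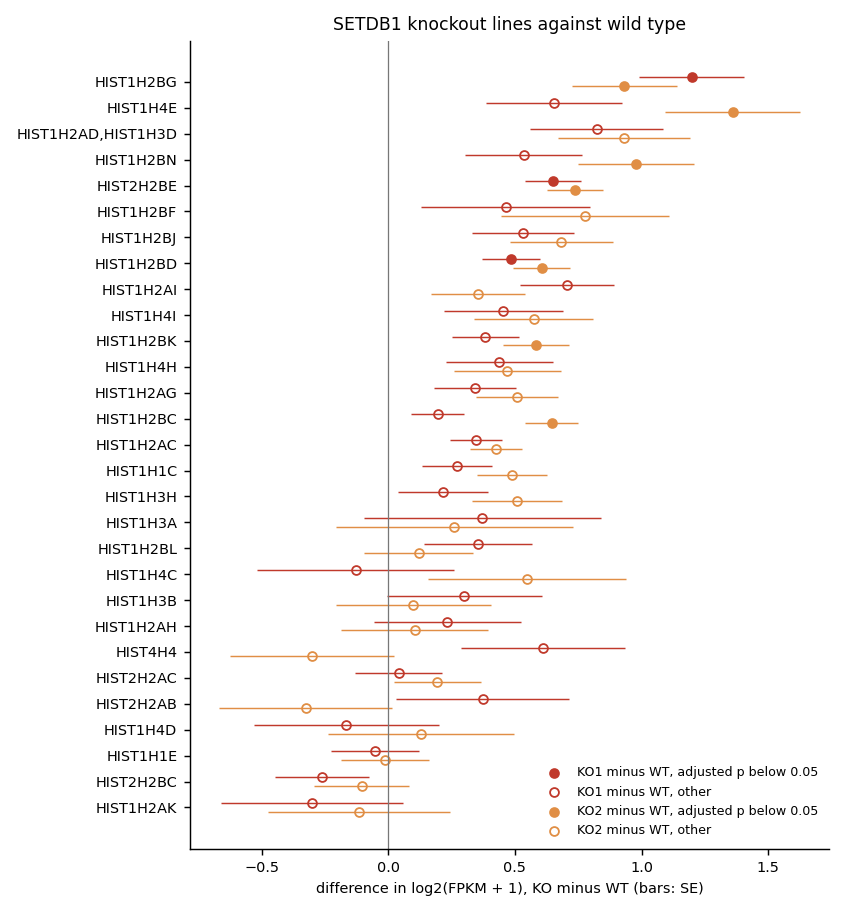
Differences in log2(FPKM + 1) of SETDB1 KO1 and KO2 against WT for the 29 members tested, with standard errors; filled points have a limma adjusted p below 0.05. HIST2H2BE, HIST1H2BD and HIST1H2BG are filled in both lines. In the mean of the lines 25 of 29 members lie above 0, where 46.9% of all genes tested do. HIST1H2BG, HIST1H2BL and HIST1H2AH met the filter on low values only through KO libraries and are among the 25.

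Not all well-expressed members were called. HIST1H1C, the main H1 gene, was 266 and 317 FPKM in KO1, 349 and 327 FPKM in KO2, and 217 and 267 FPKM in WT (0.38 higher, SE 0.12, adjusted p = 0.152). Its KO1 and WT values overlap. HIST2H2AC, whose start lies 236 bases from that of HIST2H2BE on the opposite strand, was 9.82 and 8.98 FPKM in KO1, 8.79 and 12.6 FPKM in KO2, and 7.75 and 10.6 FPKM in WT (0.12 higher, SE 0.15, adjusted p = 0.859). HIST2H2BC was 21.4 and 13.2 FPKM in KO1, 20.5 and 17.4 FPKM in KO2, and 18.3 and 22.7 FPKM in WT, so its groups overlap. The difference between the divergent HIST2 neighbours was not tested.

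Genes that serve histone supply were almost all uncalled in these lines, as were almost all genes. Of the 12610 tested, 2.45% were called higher and 0.777% lower, so an absence of calls is not particular to these lists. None of 22 genes of histone mRNA 3' end processing and decay, of 14 of histone gene transcription, of 25 histone chaperones and importins or of 20 S phase genes was called in the mean of the KO lines. SLBP, the stem-loop binding protein, was 40.9 and 43.4 FPKM in KO1, 41.5 and 38.3 FPKM in KO2, and 40.1 and 45.5 FPKM in WT. The S phase genes summed to 1711 to 2008 FPKM in the KO libraries and 1873 to 1974 FPKM in WT, so the WT sums lay inside the KO range. Of 11 replication-independent histone variants 1 was called, H2AFJ, an H2A variant gene, at 5.63 and 4.75 FPKM in KO1, 5.29 and 4.26 FPKM in KO2, and 3.25 and 3.13 FPKM in WT (0.51 higher, SE 0.12, adjusted p = 0.0455).

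With BIX-01294 in U2OS cells, 11 of 25 members tested were called lower (44%), where 32% of 12380 genes were, and 2 were called higher (8%), where 33.5% were. The members called lower included 5 H2B and 2 H2A genes, and both called higher were H4 genes. HIST2H2BE, among the genes that were higher in SETDB1 KO cells, showed the largest drop of any member in both genotypes. It stood at 9.10 FPKM with BIX and 27.2 FPKM with mock in the values labelled ATG5 KD, and at 8.57 FPKM with BIX and 34.2 FPKM with mock in vector. The BIX effect was -1.68 in a fit with genotype and treatment as terms (SE 0.11, adjusted p = 2.07e-05). No other member was 2-fold or more apart, with 1 sign, under both genotypes. Its divergent neighbour HIST2H2AC stood at 10.1 and 9.41 FPKM with BIX and mock in ATG5 KD, and at 11.6 and 10.9 FPKM in vector, a BIX effect of 0.09 (SE 0.088, adjusted p = 0.407). The difference between the neighbours was not tested.

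Both members called higher were H4 genes of the HIST1 cluster. HIST1H4H was 23.4 FPKM with BIX and 8.72 FPKM with mock in ATG5 KD, and 16.8 and 10.0 FPKM in vector (BIX effect 1.01, SE 0.14, adjusted p = 0.000605). HIST1H4C was 5.20 and 1.78 FPKM in ATG5 KD, and 1.77 and 0.87 FPKM in vector (0.86, SE 0.15, adjusted p = 0.00186). H4 members together summed to 35.2 FPKM with BIX and 16.997 FPKM with mock in ATG5 KD, and to 25.0 and 18.3 FPKM in vector. HIST1H4B was 1.23 FPKM with BIX and listed at 0 with mock in ATG5 KD, and 0.47 and 0.26 FPKM in vector. It reached 1 FPKM only in ATG5 KD with BIX, as did HIST1H4A. Both became members through that value and raise the H4 sum there, so they are no support for a difference. H4 members were not uniform, since HIST1H4I and HIST1H4K were called lower (-0.69 and -0.50); both met the filter only through the mock values.

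Of the other 6 H2B members, 4 were called lower with BIX, each by more in vector than in ATG5 KD, a difference between genotypes that was not tested. HIST1H2BN (0.21, adjusted p = 0.12) and HIST1H2BL (0.14) were not called. HIST1H2BJ was 29.8 FPKM with BIX and 33.6 FPKM with mock in ATG5 KD, against 8.48 and 28.4 FPKM in vector. HIST1H2BK was 316 and 370 FPKM in ATG5 KD, against 170 and 314 FPKM in vector. The BIX effect was -0.90 for HIST1H2BJ (SE 0.28, adjusted p = 0.0223) and -0.55 for HIST1H2BK (SE 0.14, adjusted p = 0.0097), averaged over genotypes whose single differences were far apart. H2B members summed to 388 FPKM with BIX and 469 FPKM with mock in ATG5 KD, and to 204 and 405 FPKM in vector. The joined locus of HIST1H1E, HIST1H2BD and HIST1H2BE is outside these sums and was not called. It was 33.1 FPKM with BIX and 33.3 FPKM with mock in ATG5 KD, against 18.6 and 30.7 FPKM in vector. HIST1H2BC, HIST2H2BC, HIST1H2AG, HIST1H2AC, HIST1H3A and the joined locus of HIST1H2AI and HIST1H3H were called lower with effects from -0.75 to -0.33. HIST1H1C, at 162 and 164 FPKM in ATG5 KD and 186 and 207 FPKM in vector, was not called (-0.08, adjusted p = 0.357).

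The share of members called lower with BIX is thus not far above that of all genes, and the share called higher is below it. The median BIX effect was -0.31 over the members and 0.01 over all genes. Taken 1 value against 1 value, 3 of 31 members at 1 FPKM or more were at least 2-fold higher with BIX and 1 lower in ATG5 KD, where 8.02% and 3.68% of genes were. In vector, 0 of 26 were higher and 2 lower, where 6.34% and 4.28% of genes were. With a pseudocount of 0.1 these counts were 6 higher and 4 lower in ATG5 KD, and 1 higher and 6 lower in vector. No share of all genes was counted at that pseudocount. The BIX difference was at least 1 higher in ATG5 KD than in vector for 2 of 33 members and at least 1 lower for 0, where 0.823% and 0.101% of genes were, and it was higher by any amount for 26 of 33, where 52.8% of genes were. Of the 33 members, 5 reached 1 FPKM only in ATG5 KD with BIX, HIST1H2AB, HIST1H4A and HIST1H4B among them, where 176 of 12879 genes did. Only in ATG5 KD with mock did 2 reach it, only in vector with BIX 1, and only in vector with mock 0. The choice of members thus favours ATG5 KD with BIX, and these counts are a description only. These fits rest on 4 values and 1 residual degree of freedom, and on simulated data such fits called more unchanged genes than the threshold states.

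**Figure D3:**
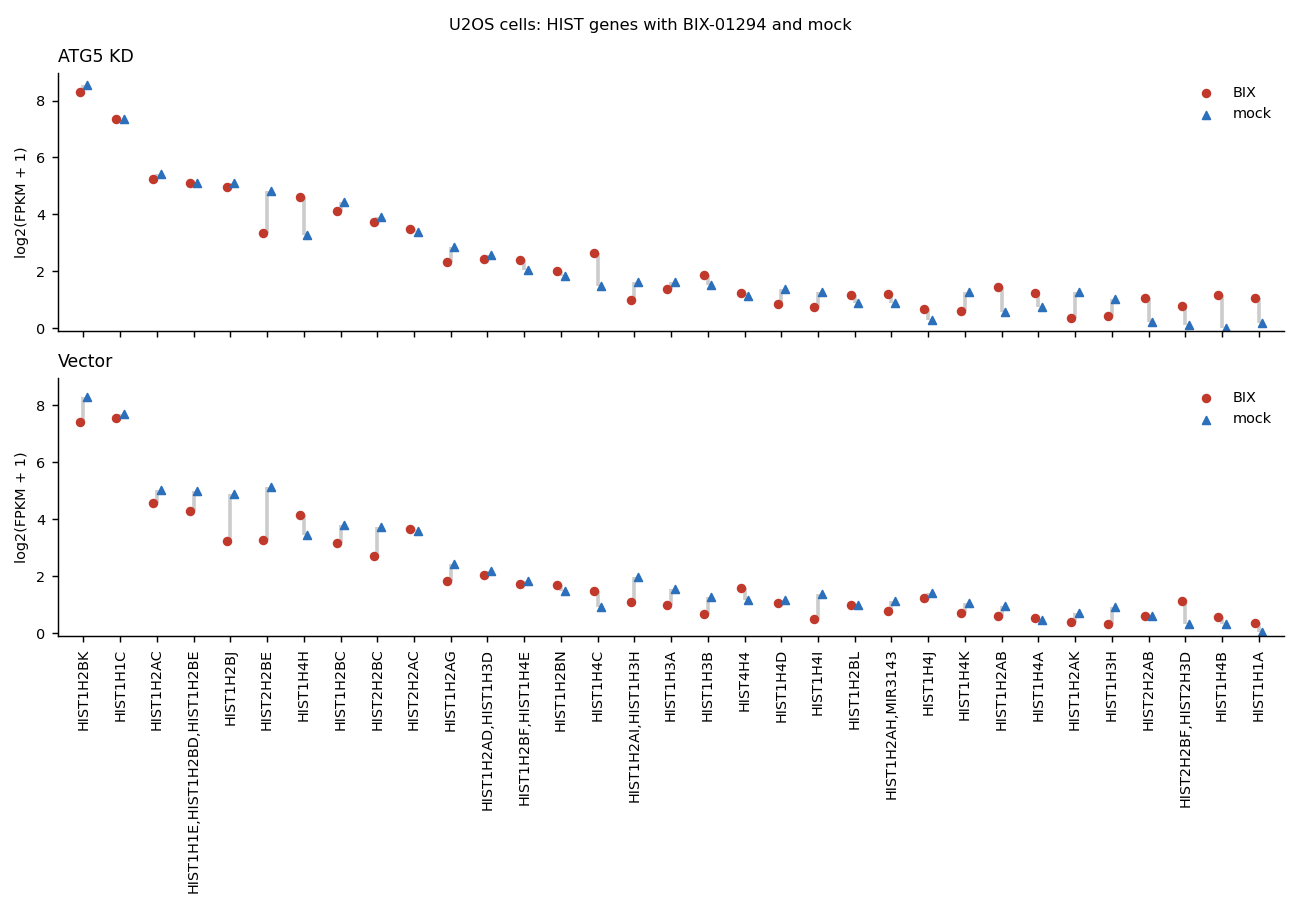
Levels of the 33 members of the ATG5 set as log2(FPKM + 1) with BIX (circles) and mock (triangles), in values labelled ATG5 KD (upper panel) and in vector (lower panel); each point is 1 deposited value and grey lines join the pair. HIST2H2BE is lower with BIX in both panels, HIST1H4H is higher in both, and HIST1H2BJ is far lower in vector.

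Between genotypes, 6 of the 25 members were called higher in values labelled ATG5 KD than in vector and 1 lower, where 9.05% and 5.67% of genes were. HIST1H2BC was 16.6 FPKM with BIX and 20.8 FPKM with mock in ATG5 KD, against 7.87 and 13.0 FPKM in vector (genotype effect 0.81, SE 0.10, adjusted p = 0.00495). HIST1H4C (0.87), HIST1H2BK (0.56), HIST1H2AC (0.53), HIST1H2AG (0.46) and the joined locus of HIST1H2AD and HIST1H3D (0.38) were the others called higher. HIST1H4J, at 0.60 and 0.22 FPKM in ATG5 KD and 1.38 and 1.64 FPKM in vector, was called lower (-0.84), but it met the filter only through the vector values, so the call is no support for a difference. Without the low-value filter 0 members were called in either direction, but of all 19278 genes only 0 were then called higher and 1 lower.

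Of the genes that accompany histone synthesis, those of S phase were mostly lower with BIX in U2OS. The counts of lists below stand against 33.5% of all genes called higher and 32% called lower with BIX. Of 20 S phase genes 16 were called lower and 0 higher, with a median of -0.60, and their summed level was 1293 FPKM with BIX and 1702 FPKM with mock in ATG5 KD, and 1136 and 1614 FPKM in vector. CCNE2, a cyclin of S phase entry, fell by 1.26, and MCM4, a subunit of the replicative helicase, fell by 0.96. SLBP was 28.4 FPKM with BIX and 36.4 FPKM with mock in ATG5 KD, and 29.4 and 39.1 FPKM in vector (-0.37, adjusted p = 0.00336). The processing list as a whole was split, with 7 of 22 higher and 9 lower, as was the transcription list, with 6 of 14 higher and 3 lower. HINFP, the activator of H4 genes, was higher by 0.80 and POU2F1, the octamer factor, by 0.70. Of 25 chaperones and importins, 12 were called lower, including ASF1B (-0.98), a chaperone of H3 and H4, and 5 higher. Among 11 variants, H1F0 (0.88), the linker histone of resting cells, and H3F3B (0.74), which encodes the replacement histone H3.3, were higher, while CENPA (-0.68), the centromeric histone, and the joined locus of DPAGT1 and H2AFX (-1.26) were lower, with H2AFY2 (-0.46) the fourth. Of 8 mesenchymal markers tested, 1 was called higher and 4 lower with BIX (median -0.15). The part of S phase genes, SLBP or these markers in the member values was not tested.

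In L929 cells the members were low and their levels flatter. Averaged over the 4 libraries, Hist1h2bc led at 22.9 FPKM, followed by Hist1h1c at 12.2 FPKM, Hist1h2af at 7.77 FPKM, Hist3h2a at 5.65 FPKM and Hist2h4 at 5.53 FPKM, and the first 2 made up 32.1% of the members' sum. Hist1h2bc was the highest member in each library, but the order below it differed between them: in cGAS KO with BIX, Hist1h4d, Hist2h4, Hist1h1e and Hist1h3e stood at 10.2 to 11.8 FPKM and Hist1h1c at 5.82 FPKM. Many of the other members were near 0 with mock and higher with BIX in the libraries labelled cGAS KO. Summed over members, the level was 149 FPKM with BIX and 64.1 FPKM with mock in cGAS KO, and 120 and 105 FPKM in cGAS WT. Of 39 members, 34 reached 1 FPKM with BIX and 10 with mock in cGAS KO, and 25 and 18 did so in cGAS WT. Over all genes at that level in any library the shares were 93.4% and 91.5% in cGAS KO, and 91.8% and 90.1% in cGAS WT. Of the 39 members, 12 reached 1 FPKM in the cGAS KO library with BIX and in no other, so the choice of members favours that library and the counts are a description only. H4 members summed to 54.1 FPKM with BIX and 6.0 FPKM with mock in cGAS KO, the widest gap of any class there, and to 21.7 and 16.3 FPKM in cGAS WT. H2B members summed to 32.5 and 22.7 FPKM in cGAS KO, and to 55.0 and 33.8 FPKM in cGAS WT, where theirs was the widest. H3 members summed to 18.8 and 5.5 FPKM in cGAS KO and to 9.5 and 9.5 FPKM in cGAS WT.

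**Figure D4:**
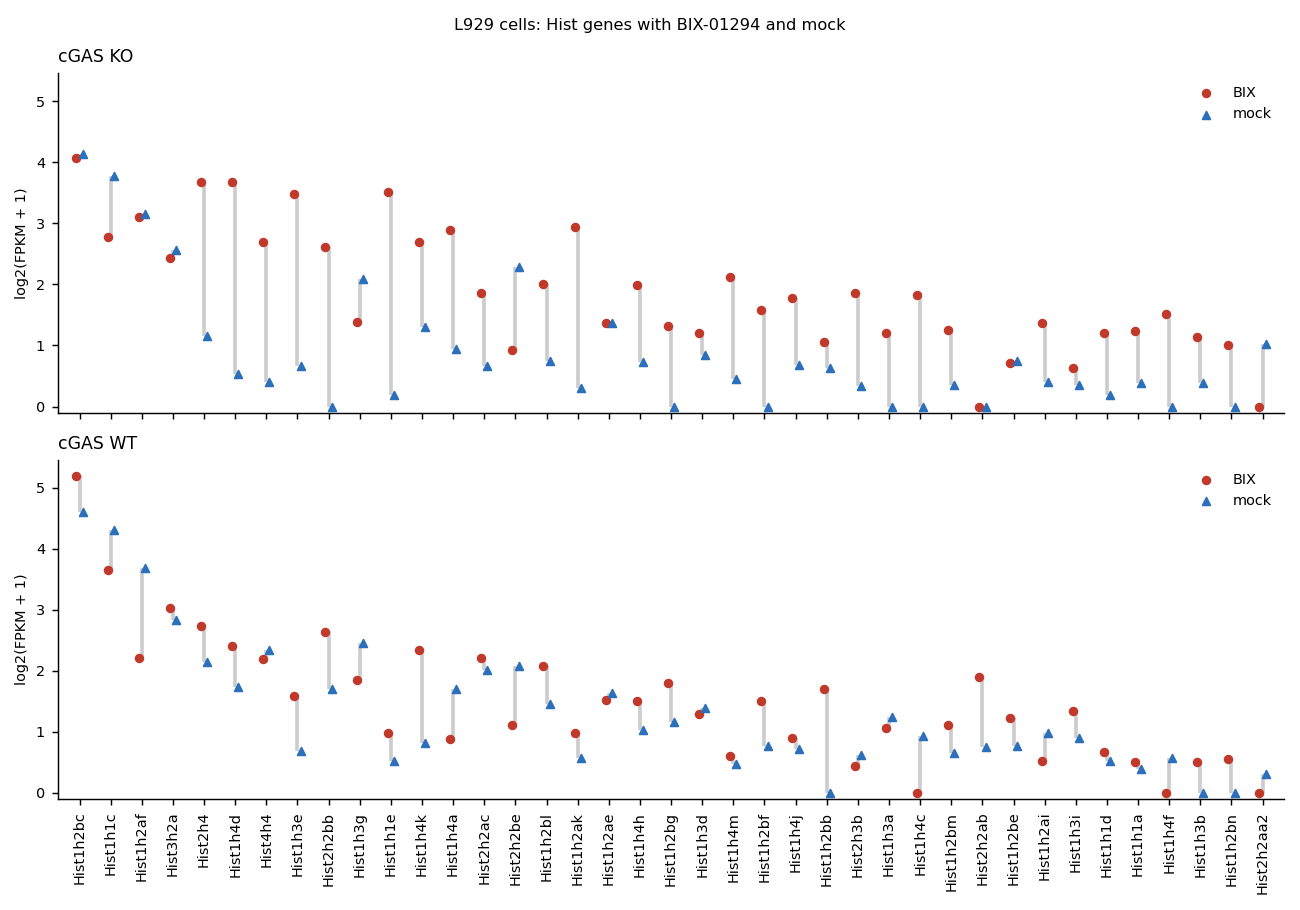
Levels of the 39 members of the cGAS set as log2(FPKM + 1) with BIX (circles) and mock (triangles), in libraries labelled cGAS KO (upper panel) and cGAS WT (lower panel); each point is 1 library and grey lines join the pair. In the upper panel 22 members are at least 2-fold higher with BIX, some of them chosen as members only through that library, and in the lower panel 3.

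Hist1h1e, a linker histone gene, was 10.4 FPKM with BIX and 0.143 FPKM with mock in cGAS KO, and 0.98 and 0.44 FPKM in cGAS WT. Hist1h3e was 10.2 and 0.583 FPKM in cGAS KO, and 2.01 and 0.61 FPKM in cGAS WT. Hist1h4d was 11.8 and 0.44 FPKM in cGAS KO, and 4.31 and 2.33 FPKM in cGAS WT. These 3 genes were higher with BIX in both genotypes, by far more in cGAS KO. Hist1h4k, at 5.47 and 1.46 FPKM in cGAS KO and 4.06 and 0.77 FPKM in cGAS WT, was the only member at least 2-fold higher in both on the FPKM + 1 scale. Several low members were listed at 0 in some libraries. Hist1h2bn was 1.00 FPKM with BIX and listed at 0 with mock in cGAS KO, and 0.46 FPKM and 0 in cGAS WT. Hist1h3b was 1.20 and 0.30 FPKM in cGAS KO, and 0.42 FPKM and 0 in cGAS WT. Hist2h2aa2 was listed at 0 with BIX in both genotypes, and stood at 1.03 FPKM with mock in cGAS KO and 0.23 FPKM with mock in cGAS WT. Hist2h2ab was listed at 0 in both cGAS KO libraries, and was 2.71 FPKM with BIX and 0.68 FPKM with mock in cGAS WT. These genes did not move one way together, and Hist1h1e was named after its values were seen, as were Hist1h2ak and HIST2H2AC.

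The members called lower were mouse counterparts of genes well expressed in U2OS. Hist2h2be, the mouse counterpart of HIST2H2BE, was 0.89 FPKM with BIX and 3.87 FPKM with mock in cGAS KO, and 1.16 and 3.25 FPKM in cGAS WT (BIX effect -1.17, SE 0.26, adjusted p = 0.00764). Hist1h1c was 5.82 and 12.8 FPKM in cGAS KO, and 11.6 and 18.7 FPKM in cGAS WT (-0.83, SE 0.21, adjusted p = 0.0127). Hist1h4d (1.91), Hist1h3e (1.86), Hist2h2bb (1.78), Hist2h4 (1.56), Hist1h4k (1.46), Hist1h2bf (1.17), Hist1h2bb (1.07) and Hist1h2bg (0.97) were the 8 largest of the 10 called higher.

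In the fit over the 4 libraries, 10 of 23 members tested were called higher with BIX and 2 lower, where 18.5% and 19.8% of 11041 genes were. Of the 10, Hist1h3e, Hist1h2bf and Hist1h2bb met the filter only through the BIX libraries, so their direction was set by it, and 7 others remained. Without the filter, 1 of 39 members was called higher and 0 lower, where 5.46% and 3.67% of genes were. With at least 5 FPKM in 2 libraries 2 of 6 were higher and 1 lower, where 20% and 21.9% of genes were. The median BIX effect was 0.70 over the 23 members and -0.05 over all genes, and 0.14 over those 6 members. Library against library, 22 of 36 members at 1 FPKM or more were at least 2-fold higher with BIX and 3 lower in cGAS KO, where 13% and 9.87% of genes were; members that reached 1 FPKM in the BIX library alone are among the 22. In cGAS WT, 3 of 26 were higher and 1 lower, where 7.4% and 6.17% of genes were. With a pseudocount of 0.1 these were 6 and 3 members, and no share of all genes was counted. The BIX difference was at least 1 higher in cGAS KO than in cGAS WT for 15 of 39 members and at least 1 lower for 2, where 3.26% and 2.89% of genes were. Of the 39, 12 reached 1 FPKM only in cGAS KO with BIX, where 276 of 11710 genes did. Only in cGAS WT with BIX did 3 reach it, and only in cGAS KO with mock 1. The choice of members thus raises this difference, and Hist1h1e and Hist1h2ak of the 15 are such members, so the count is a description only. Each of these counts rests on single libraries, and those for cGAS KO on 1 mock library in which the members were lowest.

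The depth behind those low values could be read from their steps. For 1201 genes low in both cGAS KO libraries, ratios of BIX to mock were densest in a 1% window that held 19.2% of them. That window puts the mock library at 0.997 times the reads of the BIX library. By the same reading, cGAS WT had 0.738 times the reads of cGAS KO with BIX in its BIX library, and 0.989 times in its mock library. Low values in cGAS WT with BIX thus rest on the fewest reads. For 21 of the 31 members above 0 in the cGAS KO mock library, the scaled ratio of BIX to mock was a whole number of fragments over 1, 2 or 3 mock fragments, within 0.03. The smallest such mock number was 1 for 14 of them, 2 for 6 and 3 for 1. Read this way, Hist1h1e had 73 fragments with BIX and 1 with mock, a ratio of 72.8 with an exact 95% interval of 12.7 to 2915, and Hist1h2ak had 28 and 1, a ratio of 27.9 with an interval of 4.62 to 1142. Both genes became members through the BIX library alone and were named after their values were seen, so these ratios describe the 2 libraries and support nothing further. Intervals cover counting error only, and the true fragment numbers may be multiples of these.

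Between the L929 lines, 0 of 23 members were called higher in libraries labelled cGAS KO than in cGAS WT and 1 lower, where 7.28% and 7.65% of genes were; at an unadjusted p below 0.05 the same limma fit had 1 higher and 5 lower (4.35% and 21.7%), where 14.7% and 15.8% of genes were. Hist1h2bc was the member called lower, at 15.8 FPKM with BIX and 16.6 FPKM with mock in cGAS KO, against 35.8 and 23.3 FPKM in cGAS WT (genotype effect -0.80, SE 0.21, adjusted p = 0.0339). The gap between the lines was wider with BIX than with mock.

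S phase genes were lower with BIX in L929 as well, where 18.5% of all genes were called higher and 19.8% lower. Of 20, 12 were called lower and 0 higher, with a median of -0.62, and they summed to 1241 FPKM with BIX and 1627 FPKM with mock in cGAS KO, and to 812 and 1371 FPKM in cGAS WT. Tk1, thymidine kinase, fell by 1.61. Slbp was 34.5 FPKM with BIX and 59.2 FPKM with mock in cGAS KO, and 25.8 and 48.6 FPKM in cGAS WT (-0.83, adjusted p = 0.00571). H2afx, the damage-signalling H2A variant whose gene gives both kinds of transcript end, was 21.4 and 150 FPKM in cGAS KO, and 53.0 and 140 FPKM in cGAS WT (-2.07, adjusted p = 0.000739). It was 1 of 2 lower among 9 variants, with H2afv (-0.61), and H3f3a (0.52) was higher. Processing genes were split, 5 of 21 higher and 4 lower, as were transcription genes, 4 of 14 higher and 2 lower, with Crebbp (1.56), a coactivator, and Pou2f1 (1.41) highest, and chaperones and importins, 3 of 25 higher and 5 lower, with Asf1b lower (-1.25). Between the lines, 10 of 20 S phase genes were called higher in cGAS KO, with Gins2 by 1.30, and 0 of 23 members were. Of all genes, 7.28% were called higher and 7.65% lower there. Mesenchymal markers moved too: of 7 tested, 4 were called higher and 0 lower in cGAS KO (median 0.63), and 0 higher and 4 lower with BIX (median -0.51). Their sum was 5111 FPKM with BIX and 6358 FPKM with mock in cGAS KO, and 4813 and 6226 FPKM in cGAS WT. The part of S phase genes, Slbp or these markers in the member values was not tested.

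**Figure D5:**
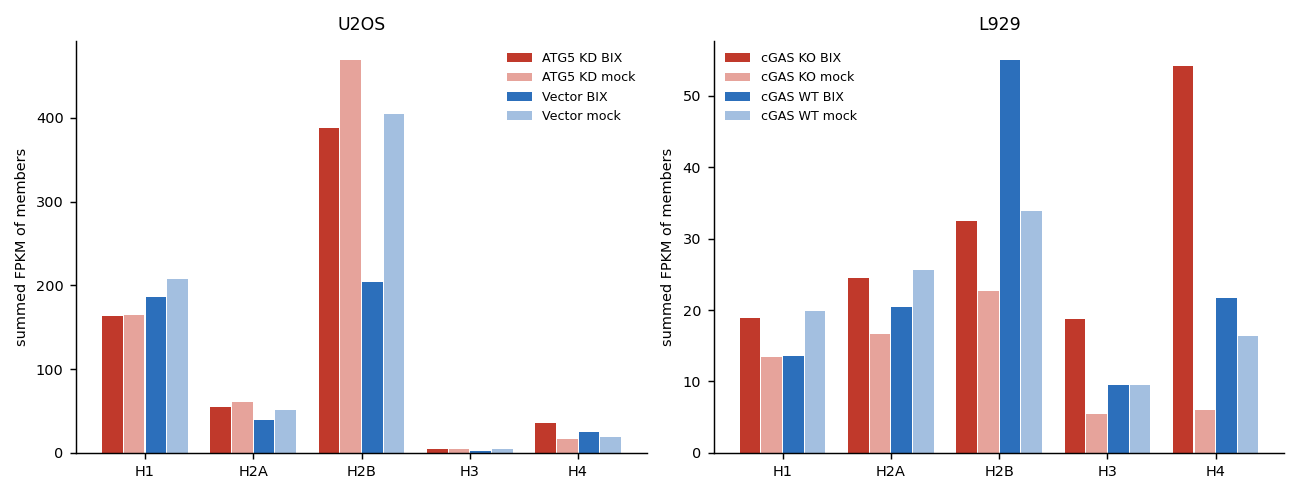
Summed FPKM of members by histone class in the 4 values of the ATG5 set (left) and the 4 libraries of the cGAS set (right). Each bar is 1 value, and loci that join genes of different classes are left out. H2B is lowest in vector with BIX on the left (204 FPKM), and H4 is highest in cGAS KO with BIX on the right (54.1 FPKM).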

How the data were processed

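Of 22 samples, 14 were poly(A)-selected RNA and 8 were ChIP or input, which were not analysed here. The authors deposited gene-level FPKM values; per the submitters' processing notes the reads were handled with FastQC, cutadapt, TopHat2 and Cufflinks on hg19 and mm10, with no versions or strand setting given. Fragment totals are not in these tables, so depth is unknown apart from relative reads in the cGAS set. FPKM is relative to the other transcripts, and fewer cells of a type and less RNA per cell cannot be told apart. A treatment note on every RNA sample names BIX-01294, also where its name says mock; the names were followed.

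Differences were fitted on log2(FPKM + 1) with limma 3.58.1 (trend) in R 4.3.3 after removing short RNA genes, over genes reaching 1 FPKM in 2 or more values, with Benjamini-Hochberg adjustment over all genes and a threshold of 0.05. The SETDB1 set was fitted as 3 groups, and the ATG5 and cGAS sets with genotype and treatment as additive terms. These fits were tested on simulated data with 200 changed genes. Single pairs of values were compared by a 2-fold difference with no test. Joined loci, listed under several symbols, were kept as 1 entry. Those that join genes of different classes were left out of the sums and counts by class. Named genes were those called in a fit, the 5 highest per set, those at least 2-fold apart in both genotypes of a line and those at 0 in 1 group and at 1 FPKM or more in another. The members, lists and rules were chosen with earlier results of these data known.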

Additional observations from a re-analysis of the deposited data

Results flagged for a closer look

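For 6 named members the BIX difference, in log2(FPKM + 1), had opposite signs in the 2 genotypes of a line. Each genotype has 1 value per condition, so these differences between genotypes were not tested. Hist1h4c was 1.83 in cGAS KO and -0.93 in cGAS WT, Hist1h4f was 1.51 and -0.58, and Hist1h3a was 1.21 and -0.18. All 3 were listed at 0 in the cGAS KO mock library and stayed under 3 FPKM everywhere. Hist1h4c and Hist1h4f were also listed at 0 in cGAS WT with BIX, a library with 0.738 times the reads of cGAS KO with BIX. Both genes reached 1 FPKM only in cGAS KO with BIX, so they became members through it and their signs are a description only. The part of depth was not tested. Hist1h2bc, the highest member in L929, was -0.069 in cGAS KO and 0.60 in cGAS WT, and Hist3h2a was -0.14 and 0.18. HIST1H4J was 0.39 in values labelled ATG5 KD and -0.15 in vector, at no more than 1.64 FPKM.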

How the results depend on the processing

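No member changed direction under any alternative run of a contrast in which it was called. Members named only for their level or for a listed 0 were not followed through these runs. HIST2H2BE passed in the mean of the SETDB1 KO lines under all 13 alternatives run for it (adjusted p from 0.000352 to 0.0183), and HIST1H2BD under 12 of 13, while HIST1H2BK passed under 4 of 13. Counts of members moved with the filter on low values. With no filter, members called higher were 2 in the mean of the KO lines, 1 in KO1 and 2 in KO2. Of all genes, 1.15%, 0.799% and 0.83% were called higher in these contrasts. Members called higher numbered 4 with BIX in U2OS, 0 in ATG5 KD and 1 with BIX in L929, where 20.3%, 0% and 5.46% of genes were. Those called lower were 0 in ATG5 KD, 0 with BIX in L929 and 0 in cGAS KO, where 0.00519%, 3.67% and 0.0653% of genes were. With at least 5 FPKM in 2 values, members called higher were 3, 1 and 4 in the SETDB1 contrasts. Of all genes, 1.64%, 1.27% and 1.33% were. With BIX, 1 member was higher in U2OS and 2 in L929, where 38.8% and 20% of genes were. Those called lower were 6 with BIX in U2OS, 1 with BIX in L929 and 2 in cGAS KO, where 29.7%, 21.9% and 8.69% were. Fewer members were tested with this filter. Leaving out 1 library gave 4 to 10 members higher in the mean of the KO lines, 2 to 4 in KO1 and 4 to 9 in KO2, with 0 to 1 lower in KO1; KO2 had 4 without either of its own libraries or the second WT library, and KO1 had 2 without its second library, the first KO2 library or the second WT library. Median centring gave 4 higher in KO2, where 1.93% of all genes were. Quantile normalization gave 4 higher with BIX in U2OS, 2 lower in ATG5 KD and 2 lower in cGAS KO. Of all genes, 29.3%, 3.88% and 7.37% were. Leaving out joined loci gave 2 lower in cGAS KO, where 7.8% of genes were. A pseudocount of 0.1 gave 2 lower in ATG5 KD, where 6.34% of genes were. For members at least 2-fold apart with BIX it gave 6 higher and 4 lower in ATG5 KD, and 1 higher and 6 lower in vector. In cGAS WT it gave 6 higher and 3 lower. Centring the differences gave 1 lower in cGAS KO. For these 2-fold counts no share of all genes was counted under the changed setting. Where no value shows otherwise, the cause was not tested.

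The replicate numbers of the SETDB1 set do not establish a pairing. Deviations of same-numbered libraries correlated at 0.20 for KO1 and KO2, 0.37 for KO1 and WT and 0.00 for KO2 and WT over 12610 genes. With a replicate block, 5 members were higher in KO1, 7 in the mean of the KO lines and 8 in KO2. Of all genes, 2.24%, 2.8% and 2.25% were. In that fit HIST1H2BK (adjusted p = 0.0568) and HIST1H4E (adjusted p = 0.0559) no longer passed in the mean of the KO lines.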
